A study of Mus musculus with 25 samples.

Results

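Transforming growth factor beta (TGF-beta) is the best known signal for matrix production by cardiac fibroblasts. Its 3 ligands, 3 receptors and 4 of its Smads were followed in heart tissue of mice on an obesogenic or a control diet. The 10 genes (Tgfb1, Tgfb2, Tgfb3, Tgfbr1, Tgfbr2, Tgfbr3, Smad2, Smad3, Smad4 and Smad7) were chosen by name, from a list written with earlier results of these data known, out of 35969 genes with a listed transcript. All 10 were among the 11983 genes with a mean of at least 1 scaled TPM that were tested.

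The mice were male littermates on a C57BL6/J backcross, either WT or GPx4+/-, which carry 1 disrupted copy of the gene for glutathione peroxidase 4 in the whole body. From an age of 8 to 10 weeks they ate either CNTL, a low fat chow with 6% of its energy as fat, or HFHS, a diet with 35.5% of its energy as lard-based fat, 38% as sucrose and added cholesterol, for 16 weeks. A further WT group on HFHS drank 80 mM carnosine, a histidine-containing dipeptide, from week 7 of the diet on. There were 5 mice in each of the 5 groups, named by genotype and diet as WT CNTL, GPx4+/- CNTL, GPx4+/- HFHS and WT HFHS, with WT HFHS + Carnosine as the fifth, and 1 polyA RNA library was made per mouse. The labels call the tissue heart, and their extraction protocol names left ventricle, about 10 mg. Carnosine in GPx4+/- mice was not analysed here.

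The ligands are secreted in a latent form, bound to a propeptide and to matrix proteins, and must be released before they can act. Active ligand binds the type II receptor (Tgfbr2), which recruits and phosphorylates the type I receptor (Tgfbr1), while betaglycan (Tgfbr3) presents the ligand as a co-receptor. The activated type I receptor phosphorylates Smad2 and Smad3, which join Smad4 and enter the nucleus, and Smad7 is an induced inhibitor that competes at the receptor. Much of this regulation acts on the proteins, which mRNA levels do not measure.

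In the GENCODE M21 annotation (GRCm38) 3 members lie at these positions, Tgfbr2 (ENSMUSG00000032440.13) at chr9:116084293-116175360 on the minus strand, Smad3 (ENSMUSG00000032402.12) at chr9:63646767-63757994 on the minus strand and Tgfb1 (ENSMUSG00000002603.15) at chr7:25687002-25705077 on the plus strand. The promoters of these 3 members are shown for their place in the diet comparison, in which the genes were not tested against each other. Tgfbr2 was the only member called, Smad3 had the lowest unadjusted p of the Smads, and Tgfb1 had the smallest log2 fold change of the ligands. Each line is the 250 bases before the RefSeq start (GRCm38.p6), read 5′ to 3′ on the gene's strand. Capitals mark the Smad box CAGAC (or GTCTG on the other strand) and the GC box GGGCGG (or CCGCCC), and these motifs do not overlap here.
Tgfbr2, chr9:116175364-116175613, minus strand: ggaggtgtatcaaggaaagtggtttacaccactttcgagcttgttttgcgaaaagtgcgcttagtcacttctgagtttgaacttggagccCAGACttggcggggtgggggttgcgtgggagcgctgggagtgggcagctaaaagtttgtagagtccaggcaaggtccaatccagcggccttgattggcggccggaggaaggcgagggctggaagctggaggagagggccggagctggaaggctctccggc
Smad3, chr9:63757995-63758244, minus strand: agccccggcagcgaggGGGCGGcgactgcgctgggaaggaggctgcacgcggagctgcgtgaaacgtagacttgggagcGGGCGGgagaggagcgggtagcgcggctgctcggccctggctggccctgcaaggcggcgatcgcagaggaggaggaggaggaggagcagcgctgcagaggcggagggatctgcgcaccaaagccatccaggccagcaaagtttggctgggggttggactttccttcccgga
Tgfb1, chr7:25686752-25687001, plus strand: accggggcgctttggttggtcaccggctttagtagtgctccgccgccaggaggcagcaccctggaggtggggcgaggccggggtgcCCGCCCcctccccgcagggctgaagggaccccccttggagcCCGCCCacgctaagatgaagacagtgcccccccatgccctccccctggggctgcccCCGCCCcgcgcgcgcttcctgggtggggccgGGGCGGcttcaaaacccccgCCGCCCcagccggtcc
The Tgfbr2 window held 1 Smad box and 0 GC boxes. The Smad3 window held 2 GC boxes and the Tgfb1 window 5, and neither had a Smad box. Of 32851 mouse windows of this length, 42.2% held a Smad box and 32.7% a GC box, so a match here is a description of the letters and not of binding. Windows were read for 5 of the 10 members. Of those not shown, the Tgfb2 window held 2 Smad boxes and 0 GC boxes. Tgfbr1 had 2 windows, 1 with 2 GC boxes and 0 Smad boxes and 1 with 1 Smad box and 0 GC boxes. Neither Tgfb2 nor Tgfbr1 was called on HFHS. The windows of Smad2, Smad4 and Smad7 were not used, and for Tgfb3 and Tgfbr3 no entry was found.

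Levels are given as scaled TPM, that is, the authors' TPM values summed over the transcripts of a gene and divided by a scaling factor per library. TPM relates reads to transcript length and library total, so genes can be compared with each other on it. Tests were made with limma on log2(scaled TPM + 0.5), a scale on which low genes appear to change less than they did. Their p-values set a difference between groups against the spread between mice within groups, an estimate that draws on all genes tested. A gene was called at a Benjamini-Hochberg adjusted p under 0.05 over the 11983 genes tested. Mitochondrial transcripts took 31.3% to 48.7% of the TPM of a library, and the scaling factors lay between 0.865 and 1.16. The targeted gene bore out the labels, with a scaled TPM of Gpx4 of 590.0 to 776.9 in the WT libraries and 250.3 to 382.4 in the GPx4+/- libraries.

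Several libraries stood apart in the markers of other cell types. The summed level of 5 atrial cardiomyocyte genes was 4656 in WT CNTL replicate 3, 7311 in GPx4+/- CNTL replicate 1 and 2733 in GPx4+/- HFHS replicate 4, with group medians of 141.8, 256.8 and 48.3. The other GPx4+/- CNTL libraries reached 1501. The sum was 597.3 in WT HFHS + Carnosine replicate 2 against a median of 109.0. The 4 hepatocyte genes summed to 1106 in GPx4+/- CNTL replicate 2. Ventricular cardiomyocyte genes were high in every library (7 genes, summed level 41840 to 52420), and the 3 adipocyte genes each had a mean under 1 scaled TPM. Whether atrial tissue was present in those libraries was not tested. The 5 libraries with atrial sums of 597.3 and above, 4 of them among the 20 mice of the diet comparison, were left out in further fits, a choice made after the data were seen. Without them Tgfbr2 was the 1 member called over both genotypes, beside 7.36% of all genes, and the 1 called within WT, beside 1.72% of all genes, and 0 members were called by limma in the other 7 comparisons. Of all genes, 2.28% were then called in the diet comparison within GPx4+/-, 0.0417% between genotypes on each diet, 0.0668% between genotypes over both diets, 0.217% in WT HFHS + Carnosine against WT CNTL and 0% in the other two.

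The members lay between the 17.1 percentile (Tgfb2) and the 72.5 percentile (Smad4) of the genes tested in mean level. Smad4, the shared partner of the receptor-activated Smads, was the most abundant of them with a mean of 21.0 scaled TPM over the 25 mice. It was followed by Tgfbr2 (17.2), Tgfbr3 (14.6), Tgfb1 (11.2), Smad2 (7.88), Smad7 (7.87), Tgfb3 (6.25), Smad3 (4.88), Tgfbr1 (4.38) and Tgfb2 (2.64). These are sums over all transcripts of a gene, and the Smad4 sum includes the noncoding Smad4-204, with a mean of 2.6 scaled TPM. The order held in most mice, with Smad4 above Tgfbr2 in 22 of 25, Tgfbr2 above Tgfbr3 in 22 and Tgfbr3 above Tgfb1 in 22. Smad2 and Smad7 could not be ordered, as Smad2 was higher in 15 of 25 mice, and Smad3 was above Tgfbr1 in only 18. Tgfbr1 was above Tgfb2 in all 25. Between mice the levels varied little, with a coefficient of variation from 8.27% for Smad4 to 23.2% for Tgfb2.

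**Figure D1:**
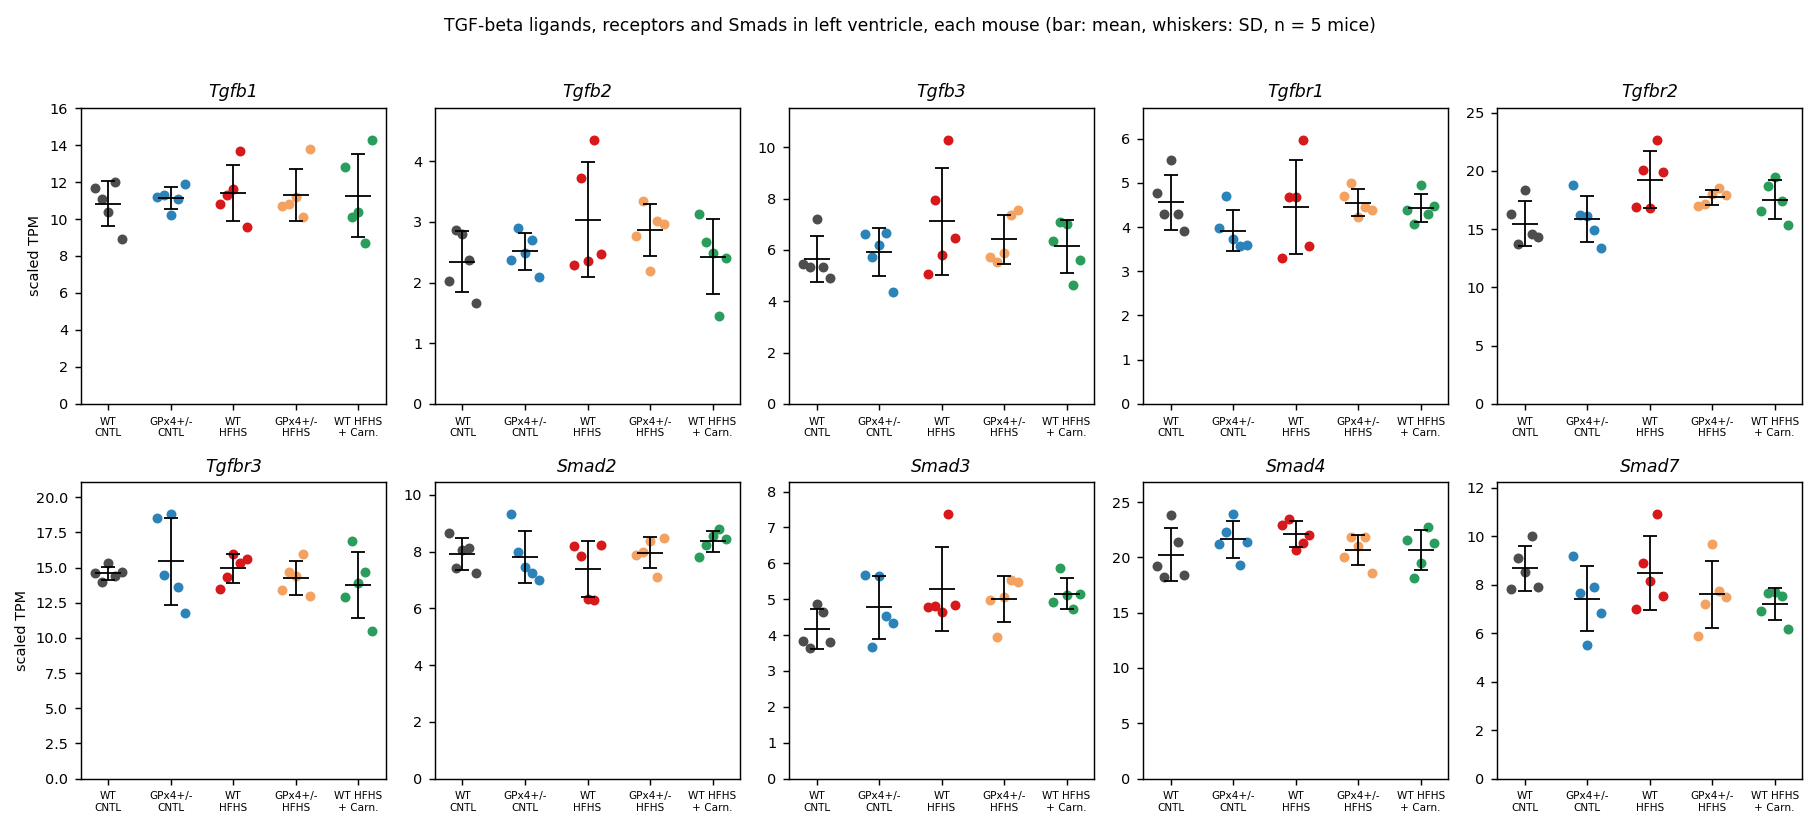
Scaled TPM (y axes, from 0) of the 10 members in each of 25 mice, by group (x axes), with black bars for the mean and whiskers for the SD of 5 mice. The groups overlap in nearly every panel, and the Tgfbr2 means are 19.3 in WT HFHS and 15.5 in WT CNTL.

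The first question was whether the obesogenic diet changed these mRNAs. Over both genotypes, 1 of the 10 members was called, Tgfbr2, which was higher on HFHS. Among all genes 8.33% were called in this comparison, 4.68% of them higher and 3.65% lower as shares of the genes tested, so 1 of 10 is close to the background. The median log2 fold change of the members was 0.06 against 0.00 for all genes, with 7 members higher and 3 lower at any p. Within WT, 0 of the 10 were called by limma and 2 had an unadjusted p under 0.05, where 1.19% of all genes were called (1979 genes at an unadjusted p under 0.05). Within GPx4+/-, 0 of the 10 were called and 0 had an unadjusted p under 0.05, where 3.34% of all genes were called (2199 genes at an unadjusted p under 0.05).

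Tgfbr2, the receptor that binds the ligand first, had values of 16.3, 13.7, 18.4, 14.6 and 14.3 scaled TPM in the 5 WT CNTL mice and of 16.9, 20.1, 16.8, 22.7 and 19.9 in the 5 WT HFHS mice. In GPx4+/- the values were 18.8, 16.2, 16.1, 14.9 and 13.4 on CNTL and 17.0, 17.2, 18.0, 18.5 and 17.9 on HFHS. The lowest WT HFHS mouse was above 4 of the 5 WT CNTL mice, and the exception was WT CNTL replicate 3. In GPx4+/- the HFHS mice lay close together above 4 of the 5 CNTL mice, and the exception there was GPx4+/- CNTL replicate 1. Both exceptions were libraries with high atrial marker sums.

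Over both genotypes Tgfbr2 rose 1.18-fold on HFHS (95% interval 1.07 to 1.29, or 0.23 on the log2 scale with a standard error of 0.07; limma, adjusted p = 0.0313). The log2 fold change was 0.31 in WT (adjusted p = 0.106) and 0.16 in GPx4+/- (adjusted p = 0.374). The difference between these effects was -0.14 (standard error 0.13, adjusted p = 0.822 from limma), so a weaker response of GPx4+/- was not shown. The call depended on the processing. With TPM as deposited, that is, without the scaling factors, the log2 fold change was 0.18 and the adjusted p 0.233, and the call was also lost with no filter on low genes (adjusted p = 0.0696 from limma) and with the replicate number as a block (0.0577). It was lost in 9 of the 20 fits that left out 1 mouse, with adjusted p between 0.0518 and 0.0619. These were the fits without WT CNTL replicate 2, 4 or 5, GPx4+/- CNTL replicate 4 or 5, WT HFHS replicate 2 or 4, or GPx4+/- HFHS replicate 4 or 5, and the log2 fold change over all 20 fits stayed between 0.20 and 0.27.

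Without the 5 libraries with high atrial sums, the Tgfbr2 log2 fold change was 0.31 over both genotypes (adjusted p = 0.0101 from limma), 0.37 within WT (adjusted p = 0.0378) and 0.24 within GPx4+/- (adjusted p = 0.196). With WT HFHS replicate 4 left out as well, it was 0.28 over both genotypes (adjusted p = 0.0108) and 0.31 within WT (adjusted p = 0.0665). Within WT and without the 5 libraries the log2 fold change of Smad4 was 0.19 (adjusted p = 0.158 from limma), that of Smad3 0.35 (adjusted p = 0.156) and that of Tgfb3 0.36 (adjusted p = 0.248).

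Markers of several cell types varied with Tgfbr2. After the group means were subtracted, its log2 level in the 25 mice had a correlation of 0.79 with the log2 sum of the fibroblast genes, 0.75 with those of the valve and cartilage-like and of the endocardium and vein genes, 0.69 with macrophage, 0.67 with mesothelium, 0.55 with atrial cardiomyocyte and -0.62 with ventricular cardiomyocyte genes. These points share libraries and scaling factors and are given as a description. In the diet comparison over both genotypes, 2 of 6 fibroblast markers were called higher and 0 lower, with a median log2 fold change of 0.30, beside 4.68% of all genes called higher. Of the 7 ventricular cardiomyocyte genes 1 was called lower, beside 3.65% of all genes. Of the 3 endocardium and vein, 5 macrophage, 4 valve and cartilage-like and 1 mesothelium genes tested, 0 were called by limma, and the unadjusted p was under 0.05 for 1, 1, 0 and 0 of them.

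The fibroblast sum ran in WT from 594.6 to 1244 scaled TPM on CNTL and from 761.3 to 1255 on HFHS. The upper end on CNTL was replicate 3, and the other 4 CNTL mice, at 594.6 to 641.1, lay below every WT HFHS mouse. In GPx4+/- it ran from 544.2 to 1080 on CNTL and from 685.6 to 1363 on HFHS, where the upper end was replicate 4 and the others lay at 685.6 to 818.7. The sum of the endocardium and vein genes ran in WT from 16.8 to 34.9 on CNTL and from 20.7 to 56.6 on HFHS, and that of the macrophage genes from 46.5 to 72.5 and from 59.1 to 91.3. In GPx4+/- the endocardium and vein sum ran from 18.25 to 63.5 on CNTL and from 21.2 to 45.5 on HFHS. The macrophage sum ran there from 55.1 to 82.0 and from 63.8 to 84.4. In bulk tissue a change in the number of cells of a type cannot be told apart from a change in RNA per cell, and the part of these cell types in the Tgfbr2 result was not tested.

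**Figure D2:**
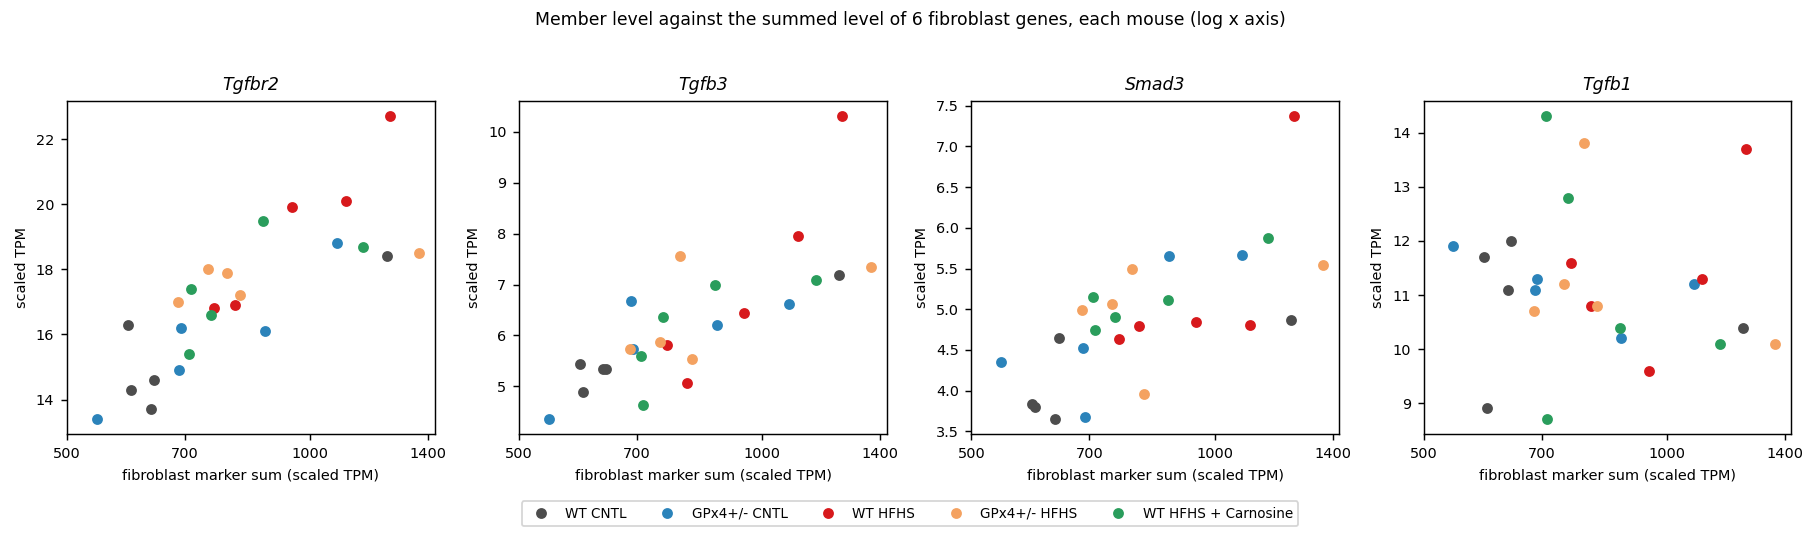
Scaled TPM of Tgfbr2, Tgfb3, Smad3 and Tgfb1 (y axes) against the summed scaled TPM of 6 fibroblast genes (x axes, log scale), 1 point per mouse and 1 colour per group. Within groups the correlation is 0.79 for Tgfbr2, 0.76 for Tgfb3, 0.65 for Smad3 and -0.15 for Tgfb1.

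Tgfbr1, the kinase that acts on Smad2 and Smad3, averaged 4.56 ± 0.61 scaled TPM in WT CNTL, 4.45 ± 1.06 in WT HFHS, 3.92 ± 0.47 in GPx4+/- CNTL and 4.55 ± 0.30 in GPx4+/- HFHS (SD, n = 5 mice each). WT HFHS was the widest group, from 3.31 to 5.98. The log2 fold change on HFHS was 0.07 over both genotypes (adjusted p = 0.640 from limma). Tgfbr3, the co-receptor, averaged 14.6 ± 0.46 in WT CNTL and 14.9 ± 1.02 in WT HFHS, and its log2 fold change over both genotypes was -0.03 (adjusted p = 0.839 from limma). Of the 3 receptors 1 was called, and for the other two the 95% intervals allowed a fold of 0.932 to 1.19 for Tgfbr1 and of 0.887 to 1.08 for Tgfbr3.

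Of the ligands, Tgfb1 is the form most studied in fibrosis. Its values were 11.7, 11.1, 10.4, 12.0 and 8.92 scaled TPM in WT CNTL, 10.8, 11.3, 11.6, 13.7 and 9.59 in WT HFHS, 11.2, 11.3, 10.2, 11.1 and 11.9 in GPx4+/- CNTL and 10.7, 10.8, 11.2, 10.1 and 13.8 in GPx4+/- HFHS. The 4 groups overlapped almost fully. The log2 fold change on HFHS was 0.07 in WT, 0.01 in GPx4+/- and 0.04 over both (adjusted p = 0.754 from limma), and the 95% interval of the last was a fold of 0.936 to 1.13.

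Tgfb2 and Tgfb3, the ligands with known roles in heart valve and septum development, had higher means on HFHS in both genotypes but were not called. Tgfb3 values were 5.44, 5.35, 7.19, 5.35 and 4.90 scaled TPM in WT CNTL and 5.07, 7.95, 5.81, 10.3 and 6.45 in WT HFHS. The highest of each group, WT CNTL replicate 3 and WT HFHS replicate 4, stood well above the rest. Over both genotypes the log2 fold change was 0.20 for Tgfb3 (adjusted p = 0.285 from limma) and 0.22 for Tgfb2 (adjusted p = 0.221). Without WT HFHS replicate 4 these fell to 0.13 and 0.16. Tgfb2 averaged 2.35 ± 0.51 in WT CNTL, 3.04 ± 0.95 in WT HFHS, 2.51 ± 0.31 in GPx4+/- CNTL and 2.86 ± 0.43 in GPx4+/- HFHS (SD, n = 5 mice each).

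Smad3, the receptor-activated Smad that binds DNA, had values of 3.83, 3.65, 4.87, 4.65 and 3.80 scaled TPM in WT CNTL and of 4.79, 4.80, 4.64, 7.37 and 4.84 in WT HFHS. In GPx4+/- they were 5.67, 3.67, 5.65, 4.52 and 4.35 on CNTL and 4.99, 3.96, 5.06, 5.54 and 5.49 on HFHS. WT HFHS replicate 4 stood far above the other 4 mice of its group, and in GPx4+/- the diets overlapped over nearly the whole range. The log2 fold change was 0.30 in WT (adjusted p = 0.254 from limma, standard error 0.13), 0.07 in GPx4+/- (adjusted p = 0.831) and 0.19 over both (adjusted p = 0.221). Without WT HFHS replicate 4 the WT value was 0.19 (adjusted p = 0.505, the highest of the fits without 1 mouse).

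Smad2, Smad4 and Smad7 were not called on HFHS. Smad2, the partner of Smad3, averaged 7.91 ± 0.57 scaled TPM in WT CNTL and 7.38 ± 0.99 in WT HFHS. Smad4 averaged 20.2 ± 2.39 in WT CNTL and 22.1 ± 1.17 in WT HFHS, and its log2 fold change was 0.13 in WT and -0.06 in GPx4+/-. The difference between these 2 diet effects was -0.20 (adjusted p = 0.695 from limma, standard error 0.10), the smallest p among the members for that difference. Smad7 averaged 8.67 ± 0.92 in WT CNTL and 8.48 ± 1.53 in WT HFHS, with a log2 fold change over both genotypes of -0.004 (95% interval of the fold 0.871 to 1.14).

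For the difference between the diet effects of the genotypes, 0 of the 10 members were called by limma and 0 had an unadjusted p under 0.05 (1 without the 5 libraries with high atrial sums, Smad4, at a log2 difference of -0.27 and an adjusted p of 0.442), while 0% of all genes were called and 856 had an unadjusted p under 0.05. The log2 differences of the members ran from -0.23 (Smad3) to 0.25 (Tgfbr1). Both ends moved with single mice, to -0.11 for Smad3 without WT HFHS replicate 4 and to 0.16 for Tgfbr1 without WT HFHS replicate 1. Over the 9 comparisons, 77 of the 90 log2 fold changes of members moved by over 1.5 times or changed sign in at least 1 fit without a mouse.

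**Figure D3:**
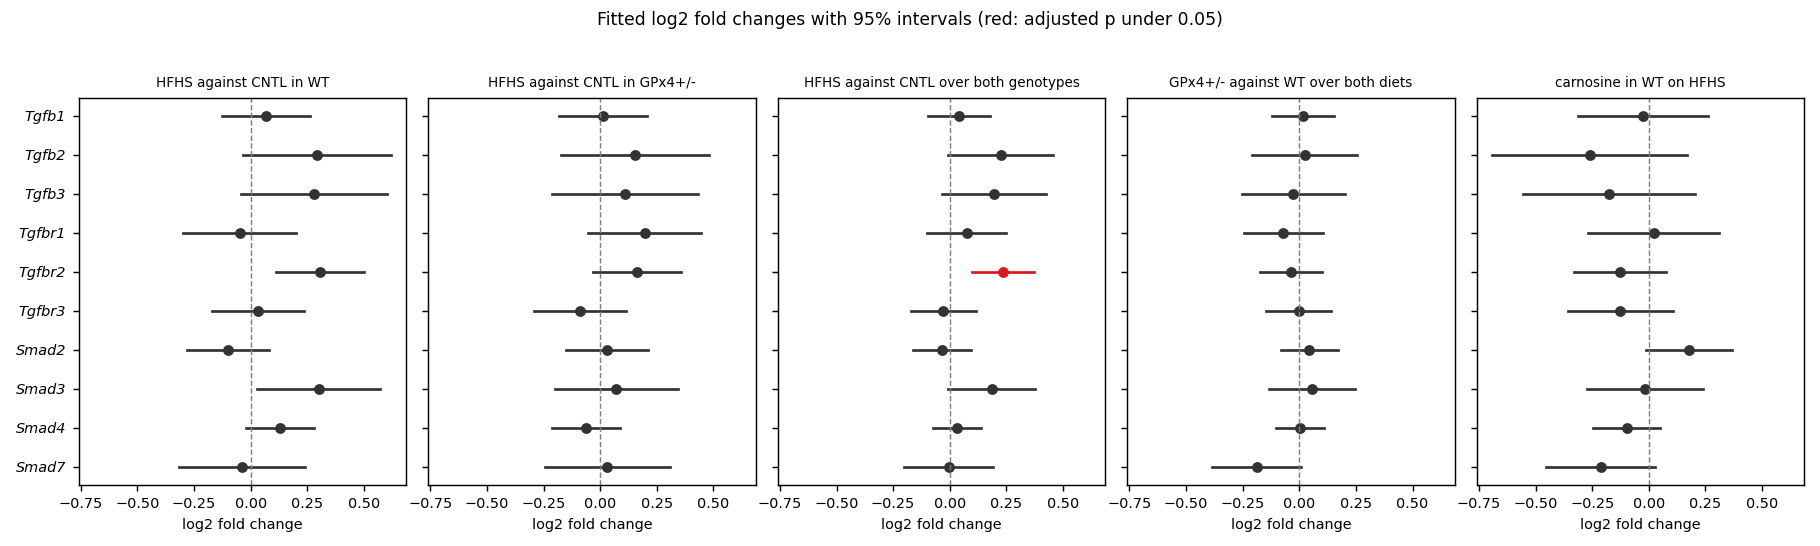
Fitted log2 fold change (x axes) with its 95% interval for each member (y axis) in 5 comparisons, red where the adjusted p is under 0.05. Tgfbr2 on HFHS over both genotypes is the only red point, at 0.23.

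The second question was whether the loss of 1 Gpx4 copy changed the pathway. On CNTL 0 of the 10 members were called by limma between genotypes and 0 had an unadjusted p under 0.05, where 0.0501% of all genes were called (754 genes at an unadjusted p under 0.05). On HFHS the counts were again 0 and 0, where 0.0501% of all genes were called (547 at an unadjusted p under 0.05). Over both diets they were 0 and 0 beside 0.0584% of all genes (466 at an unadjusted p under 0.05). The member nearest to a difference was Smad7. Its values were 7.81, 9.09, 8.51, 10.0 and 7.91 scaled TPM in WT CNTL and 9.16, 7.66, 5.51, 7.91 and 6.84 in GPx4+/- CNTL, and 6.99, 8.90, 8.13, 10.9 and 7.51 in WT HFHS and 5.87, 7.18, 9.67, 7.75 and 7.48 in GPx4+/- HFHS. The groups overlapped on both diets. Over both diets the log2 fold change was -0.19 (adjusted p = 1.00 from limma, standard error 0.09). Without the 5 libraries with high atrial sums Smad7 was the 1 member with an unadjusted p under 0.05 on CNTL, where its log2 fold change went from -0.22 to -0.35 (adjusted p = 0.707 from limma), and over both diets, where it was -0.26 (adjusted p = 1.00). Without GPx4+/- CNTL replicate 3 alone, the lowest mouse, the value on CNTL was -0.13. For Tgfb1 the log2 fold change over both diets was 0.02, with a 95% interval of the fold from 0.921 to 1.11.

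The third question was what carnosine did on top of the diet. Between WT HFHS + Carnosine and WT HFHS, 0 of the 10 members were called by limma and 0 had an unadjusted p under 0.05, and 0% of all genes were called (504 genes at an unadjusted p under 0.05). The means of 8 members were lower on the log2 scale and those of 2 higher, with a median log2 fold change of -0.11 against 0.00 for all genes, and the smallest adjusted p was 0.947. This split depended on single mice. Without WT HFHS replicate 4 it was 6 lower and 4 higher with a median of -0.05, and the log2 fold change moved from -0.13 to -0.07 for Tgfbr2 and from -0.21 to -0.12 for Smad7. Without WT HFHS + Carnosine replicate 4 it was also 6 and 4. Tgfbr2 values with carnosine were 16.6, 18.7, 19.5, 17.4 and 15.4 scaled TPM, within or below the range of 16.8 to 22.7 without it, and the log2 fold change was -0.13 (standard error 0.09, 95% interval of the fold 0.795 to 1.05). Tgfb1 ranged from 8.71 to 14.3 with carnosine, wider than any other group. The lowest p were those of Smad2 (8.36 ± 0.37 with and 7.38 ± 0.99 without, log2 fold change 0.18) and Smad7 (7.19 ± 0.66 with and 8.48 ± 1.53 without, -0.21), both with an adjusted p of 0.947 from limma.

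WT HFHS replicate 4 was the highest of its group for 7 of the 10 members (Tgfb1, Tgfb2, Tgfb3, Tgfbr1, Tgfbr2, Smad3 and Smad7), and WT CNTL replicate 3 for 6 (Tgfb3, Tgfbr1, Tgfbr2, Tgfbr3, Smad3 and Smad4). The 5 WT HFHS mice are the HFHS side of the diet comparison in WT and also the baseline of the carnosine comparison, so the directions in these comparisons are not independent of each other.

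Set against WT CNTL, the WT HFHS + Carnosine mice differ by diet and carnosine together. In this comparison 0 of the 10 members were called by limma and 2 had an unadjusted p under 0.05, where 0.234% of all genes were called (1571 genes at an unadjusted p under 0.05). Smad3 was at 4.91, 5.88, 5.11, 4.74 and 5.15 scaled TPM with carnosine on HFHS, above 4 of the 5 WT CNTL mice, and its log2 fold change was 0.28 (adjusted p = 0.216 from limma, standard error 0.09). Smad7 was at 6.89, 7.66, 7.69, 7.54 and 6.17, below every WT CNTL mouse, and its log2 fold change was -0.25 (adjusted p = 0.230 from limma, standard error 0.08). Of 60 comparisons of a member between 2 groups of 5, this was the only one without overlap, and 3.26% of all genes did not overlap between these groups.

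The balance between members was also compared, since a share within a library does not depend on scaling. Tgfb1 made up 57.6% ± 4.05 of the summed TPM of the 3 ligands in WT CNTL, 53.5% ± 5.26 in WT HFHS and 56.7% ± 5.33 with carnosine on HFHS, and in GPx4+/- 57.0% ± 4.43 on CNTL and 54.9% ± 3.41 on HFHS (SD, n = 5 mice each). Tgfb3 followed with group means of up to 32.6%, and Tgfb2 with 12.1% to 14.0%. Tgfbr1 was 22.7% ± 0.85 of Tgfbr1 and Tgfbr2 together in WT CNTL, 18.7% ± 2.78 in WT HFHS, 19.9% ± 2.00 in GPx4+/- CNTL and 20.3% ± 1.71 in WT HFHS + Carnosine. In GPx4+/- HFHS it was 20.4% ± 1.55. The exact permutation p was 0.0159 for WT CNTL against each of WT HFHS, GPx4+/- CNTL and WT HFHS + Carnosine, 3 comparisons that share the 5 WT CNTL mice, and 0.159 after adjustment over the 30 share comparisons. Between the diets in GPx4+/- the share was 0.57 percentage points higher on HFHS (exact permutation p = 0.595). Smad2 was 65.6% ± 2.74 of Smad2 and Smad3 together in WT CNTL and 58.4% ± 7.21 in WT HFHS (exact permutation p = 0.0317, adjusted 0.238). Without WT HFHS replicate 4 the WT HFHS mean was 61.4% and the difference went from -7.22 to -4.15 percentage points (exact permutation p = 0.0635). After adjustment 0 of the 30 comparisons were called and 4 had an unadjusted p under 0.05, all from two-sided tests. With 5 mice against 5 the smallest exact p is 0.00794, and at least 5 of the 30 comparisons would have to reach it before any could be called, so the design left little room for a call.

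Transcripts were examined next, because the table lists 46 for these genes. Of these, 17 had a mean of at least 1 scaled TPM. Tgfb3-201 carried the whole of Tgfb3, and a single transcript nearly all of Tgfb1 (Tgfb1-201, 95.1% of the gene), Tgfbr3 (Tgfbr3-201, 95.5%) and Smad3 (Smad3-201, 94.0%). Tgfbr2 was split between the protein coding Tgfbr2-201 (67.2%) and Tgfbr2-202 (32.8%), and this split was steady, at 68.2% ± 0.96 for Tgfbr2-201 in WT CNTL and 67.1% ± 2.65 in WT HFHS (SD, n = 5 mice each). Smad7 was divided between Smad7-201 (42.9%), the 769-base Smad7-204 (40.0%) and Smad7-202 (15.9%), and Smad4 between Smad4-201, the largest, Smad4-202 (32.4%) and the noncoding Smad4-204 (12.4%). Assignment of reads among overlapping transcripts is an estimate, and the error of that estimate is not in the table.

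**Figure D4:**
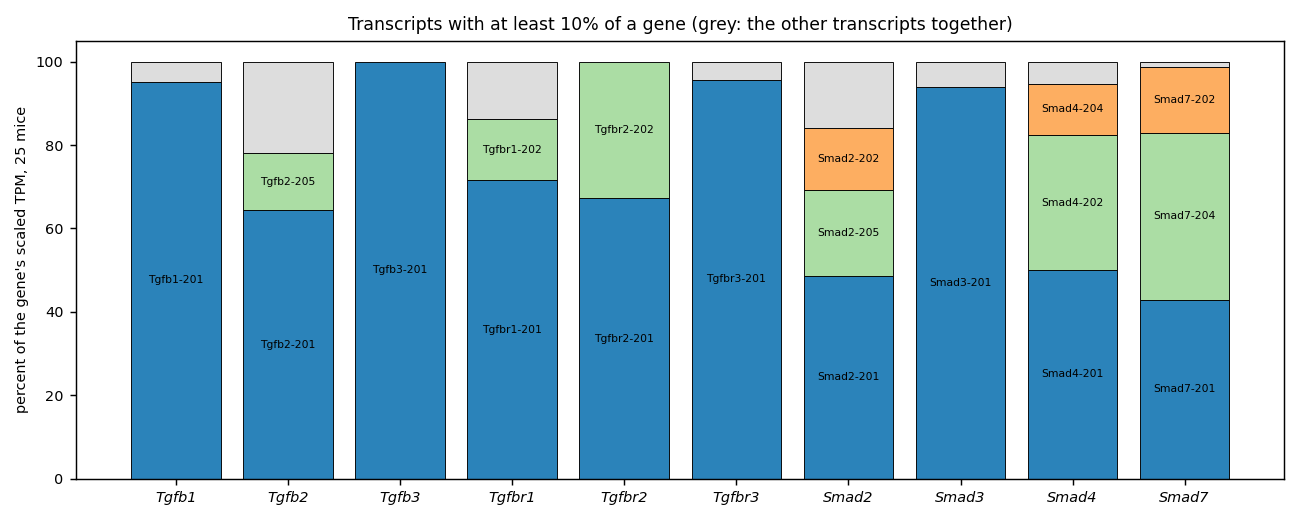
Share of each gene's scaled TPM over the 25 mice (y axis, percent) taken by each transcript with at least 10% of the gene, with the other transcripts together in grey. Tgfbr2 is divided into 67.2% Tgfbr2-201 and 32.8% Tgfbr2-202.

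In the 9 comparisons 0 of 153 tests of a member transcript were called by limma and 14 had an unadjusted p under 0.05, where 0.472% of all such tests were called and 8.20% had an unadjusted p under 0.05. Smad3-201 came nearest. It averaged 3.88 ± 0.47 scaled TPM in WT CNTL and 5.11 ± 0.76 in WT HFHS, and 4.14 ± 0.67 in GPx4+/- CNTL and 4.90 ± 0.59 in GPx4+/- HFHS, with a log2 fold change over both genotypes of 0.29 (adjusted p = 0.0546 from limma, standard error 0.08). Tgfbr2-201 and Tgfbr2-202 had log2 fold changes of 0.23 (adjusted p = 0.0902) and 0.22 (adjusted p = 0.118) in the same comparison, so both transcripts had a log2 fold change close to that of the gene, though neither was called. Smad4-204 was lower on HFHS in GPx4+/- (log2 fold change -1.61, adjusted p = 0.185), and it was listed at 0 in the lowest GPx4+/- HFHS library.

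The members were next set among the other genes of the pathway, in 6 lists. Latency and activation held 18 genes for the proteins that store and release the ligand, of which 16 were tested. On HFHS over both genotypes 3 of these 16 were called higher and 0 lower, beside 4.68% of all genes called higher and 3.65% lower, and the median log2 fold change was 0.14 against 0.00 for all genes. Emilin1, a matrix glycoprotein that restrains processing of the ligand precursor, rose over both genotypes (log2 fold change 0.40, adjusted p = 0.0198 from limma), with 11.0 ± 1.22 scaled TPM in WT CNTL against 15.7 ± 4.63 in WT HFHS and 11.4 ± 1.36 in GPx4+/- CNTL against 14.5 ± 1.97 in GPx4+/- HFHS. Mmp2, a gelatinase that can release latent ligand, rose by 0.44 (adjusted p = 0.0201), and Itgb1, the beta 1 integrin chain, by 0.15 (adjusted p = 0.0381). The fibroblast markers were higher in the same comparison, as given for Tgfbr2 (2 of 6 called higher, median 0.30). Their mean log2 sum was 9.47 in WT CNTL and 9.91 in WT HFHS, and 9.56 in GPx4+/- CNTL and 9.74 in GPx4+/- HFHS. Without GPx4+/- HFHS replicate 4 the difference in GPx4+/- went from 0.18 to 0.007. The part of the fibroblast markers in this list was not tested.

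The list of accessory and decoy receptors and binding proteins held 10 genes, 9 of them tested. Bambi, a decoy receptor that lacks the kinase domain, was called higher on HFHS in WT, the only call of the 9 there, where 0.659% of all genes were called higher. Its scaled TPM was 2.14 ± 0.49 in WT CNTL and 3.38 ± 0.49 in WT HFHS (log2 fold change 0.56, adjusted p = 0.0294 from limma), and 2.32 ± 0.27 and 3.04 ± 0.43 in the corresponding GPx4+/- groups. Pmepa1, a membrane protein that sequesters Smad2 and Smad3, was called higher in GPx4+/- (0.64, adjusted p = 0.0406 from limma), the only call of the 9 there, where 2.18% of all genes were called higher. Its levels were 10.3 ± 1.81 in GPx4+/- CNTL and 16.1 ± 2.15 in GPx4+/- HFHS. Over both genotypes 2 of the 9, these genes, were called higher beside 4.68% of all genes (Bambi 0.44, adjusted p = 0.00363, and Pmepa1 0.47, adjusted p = 0.0177), and the median of the list was 0.11. Both are known inhibitors of the pathway.

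Of the TGF-beta target genes 19 of 24 were tested and 1 was called on HFHS over both genotypes, a share below the 8.33% of all genes. This was Ccn1, a matricellular protein, at 27.2 ± 3.52 scaled TPM in WT CNTL, 36.5 ± 7.06 in WT HFHS, 26.0 ± 6.19 in GPx4+/- CNTL and 37.9 ± 6.59 in GPx4+/- HFHS (log2 fold change 0.48, adjusted p = 0.0122 from limma). The list's median was 0.22, with 14 genes higher and 5 lower at any p. Within WT 0 of 19 were called and 4 had an unadjusted p under 0.05, beside 16.5% of all genes, and within GPx4+/- 0 were called and 1 had an unadjusted p under 0.05, beside 18.4% of all genes. With carnosine the median was -0.22, with 14 genes lower and 5 higher at any p, while 0 were called by limma and 0 had an unadjusted p under 0.05. Some marker sums were lower with carnosine as well, with a mean log2 sum of 9.69 against 9.91 for the fibroblast, 4.56 against 5.25 for the endocardium and vein and 3.58 against 4.78 for the valve and cartilage-like genes, and 0 genes of these lists were called by limma (2 of the endocardium and vein genes had an unadjusted p under 0.05). Other sums were higher with carnosine, those of the atrial (7.225 against 6.502) and ventricular cardiomyocyte (15.48 against 15.46) and endothelium genes (8.44 against 8.40). The macrophage (6.186 against 6.179), lymphocyte (1.29 against 1.25) and hepatocyte sums (1.32 against 0.97) were higher too. Without WT HFHS replicate 4 the fibroblast difference went from -0.21 to -0.12 and that of the valve and cartilage-like genes from -1.20 to -0.66, and without WT HFHS + Carnosine replicate 2 the fibroblast difference was -0.34. The part of these cell types in the target genes' values was not tested. Ccn1 was at 30.2 ± 2.80 in the carnosine group. The diet and carnosine comparisons share the WT HFHS mice here too.

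Among the other Smads and Smad regulators 20 of 22 genes were tested, and over both genotypes 1 was called higher and 1 lower on HFHS, which is near the 8.33% of all genes called. Ppm1a, a phosphatase that acts on Smad2 and Smad3, rose by 0.16 (adjusted p = 0.00966 from limma), and Usp11, a deubiquitinase, fell by 0.41 on the log2 scale (adjusted p = 0.0388). Within GPx4+/-, where 2.18% of all genes were called higher, 2 of the 20 were, Ppm1a and Smurf2 (0.23, adjusted p = 0.0208, and 0.29, adjusted p = 0.0468, both from limma). Smurf2 is a ubiquitin ligase that targets the receptors and Smads. In the non-Smad branch 1 of 12 genes was called, Tab2, an adaptor of the kinase TAK1, higher on HFHS in GPx4+/- (0.19, adjusted p = 0.0404 from limma), beside 2.18% of all genes called higher. Among the BMP and activin ligands and receptors 12 of 24 genes were tested and 0 were called in any comparison. The smallest p in that list was that of Acvr1, a type I receptor, in WT HFHS + Carnosine against WT CNTL (log2 fold change 0.28, adjusted p = 0.156 from limma). Between genotypes and with carnosine, 0 genes of the 6 lists were called.

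The calls in the lists were not equally firm. Over both genotypes Emilin1, Mmp2, Bambi, Pmepa1, Ppm1a and Ccn1 were called in each of the 20 fits without 1 mouse. Itgb1 was not called in 12 of them (it was without WT CNTL replicate 1 or 4, GPx4+/- CNTL replicate 1, 2 or 3, WT HFHS replicate 2, or GPx4+/- HFHS replicate 1 or 4), and Usp11 was not in 11 (it was without WT CNTL replicate 2, 4 or 5, GPx4+/- CNTL replicate 2, 4 or 5, WT HFHS replicate 2, or GPx4+/- HFHS replicate 2 or 4). Bambi in WT lost its call in 7 fits, those without WT CNTL replicate 1, 2, 4 or 5 or WT HFHS replicate 2, 3 or 4.

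Within GPx4+/- each call was lost in some fits. Ppm1a lost it in 5, without CNTL replicate 1, 3 or 4 or HFHS replicate 1 or 5 of that genotype. Tab2 lost it in 7, without CNTL replicate 1, 3 or 4 or HFHS replicate 1, 3 or 5 of that genotype or WT CNTL replicate 4, and Pmepa1 in 8, without the same mice or GPx4+/- HFHS replicate 4. Smurf2 kept its call in 4 of the 20 fits, those without GPx4+/- CNTL replicate 2, WT HFHS replicate 4 or 5, or GPx4+/- HFHS replicate 4. Without the 5 libraries with high atrial sums, Itgb1 (adjusted p = 0.0686 from limma), Emilin1 (0.0591) and Pmepa1 (0.0595) were not called over both genotypes, nor were Pmepa1 (0.126) and Tab2 (0.0868) within GPx4+/-. With TPM as deposited, of these genes Bambi and Usp11 were called over both genotypes (adjusted p = 0.0287 and 0.0434 from limma), and 0 were within WT or within GPx4+/-.

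**Figure D5:**
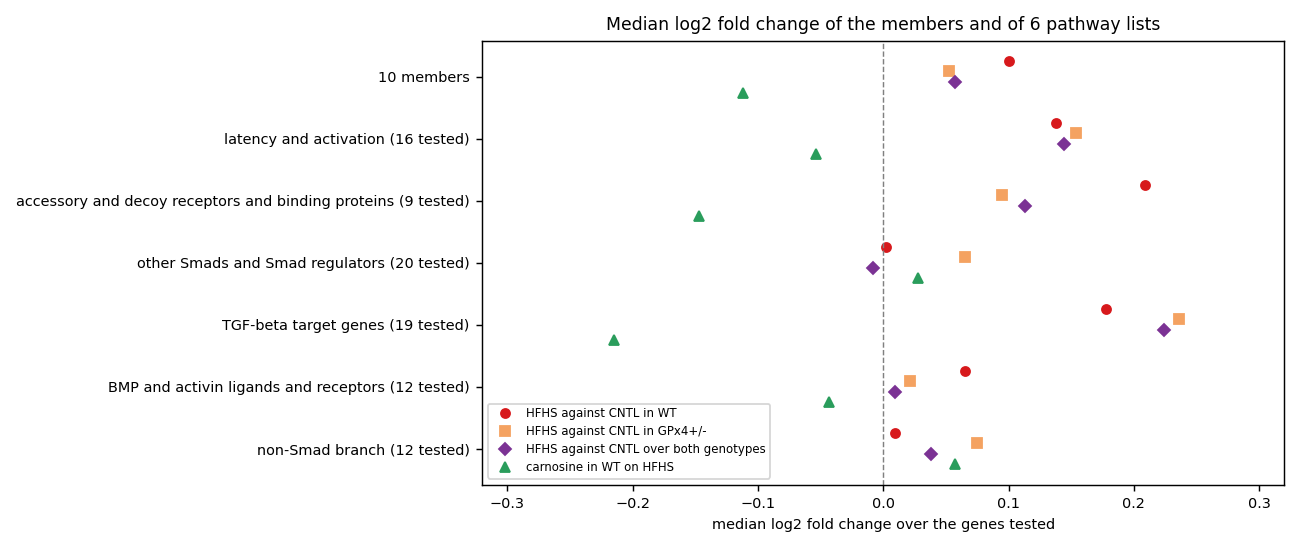
Median log2 fold change (x axis) of the 10 members and of 6 pathway lists (y axis, with the number of genes tested) in 4 comparisons. The target genes lie at 0.22 on HFHS over both genotypes and at -0.22 with carnosine, and all genes have a median of 0.00 in each of the 4.

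The members also differed in which mice they were high in. After each group mean was subtracted, the log2 values of the 25 mice gave 45 correlations between 2 members, 34 of them above 0, with a median of 0.23. Tgfb3 and Tgfbr2 were the most alike (r = 0.76), then Tgfb2 and Tgfb3 (0.73) and Tgfb3 and Smad3 (0.68), while Tgfb1 and Tgfbr3 ran in opposite directions (-0.52). Tgfb1 had a correlation of 0.72 with the sum of 6 endothelial genes and Tgfbr3 of -0.73. The genes outside the members with the highest correlations were Antxr1 (0.90), Adamts2 (0.90) and Col1a2 (0.89) for Tgfb3, Fbln1, C1ra and Lrp1 (each 0.86) for Tgfbr2, and S100a11 (0.88), Col5a2 (0.86) and Cygb (0.85) for Tgfb2. For Tgfbr1 they were Ltbp2 (0.85), Cyth3 (0.83) and Postn (0.82), and for Tgfbr3 Anxa11 (0.90), Penk (0.89) and Atrnl1 (0.88). Tgfb1 was most like 2010111I01Rik (0.92), Rhoc (0.91) and Nrp2 (0.89).

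Among the Smads the closest genes were less close. They were Slc25a23, Cyba (0.82 each) and Arrb1 (0.81) for Smad3, Zfp638 (0.81), Spin1 (0.75) and Smyd4 (0.73) for Smad4, Trnp1 (0.76), Id3 (0.75) and Maff (0.74) for Smad7, and Mad2l1, Fam120b and Dyrk2 (0.70 to 0.68) for Smad2. Each was picked as the highest among the genes tested, and all 25 points share their library's scaling, so these are descriptions of which genes varied with a member.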

How the data were processed

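PolyA RNA of 25 mouse hearts (left ventricle by the labels' extraction protocol) was sequenced as stranded paired-end libraries, and the authors deposited TPM per transcript and library. The submitters' processing notes name kallisto 0.43.1, sleuth 0.30.0 and GRCm38, and the published methods describe STAR and DESeq2 for their own tests. Columns were matched to mice by the library name in the header, because the column positions given with the samples disagree with it. A deposited transcript length was not used.

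Of 119215 transcripts, 116772 were matched to GENCODE mouse M21 and 2443 were not (at most 0.723% of TPM). Gene sums were divided by median-ratio factors from 11879 genes. TPM are not counts and keep no depth, so limma 3.58.1 (R 4.3.3; empirical Bayes with a mean-variance trend) was used on log2(scaled TPM + 0.5), for 20 mice as 4 groups and for 10 mice in each carnosine comparison, and no counting error is given. Shares were compared by exact permutation. The test was tried on simulated data, whose outcome is not reported here and is not used for any result. The labels name separate samples and not litters or cages.

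The members, gene lists and tests were chosen with earlier results of these data known. Named genes are all members, Gpx4, per list and direction the 3 called genes with the smallest p (or, with none called, the smallest p), the 3 genes most correlated with each member, and transcripts with at least 10% of a member. The alternatives tried were no filter on low genes, a minimum of 5, a pseudocount of 0.1, unscaled TPM, quantile normalization, array weights, 1 fit of all mice, the replicate number as a block and each mouse left out.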

Additional observations from a re-analysis of the deposited data

Results flagged for a closer look

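In groups of 5 mice a library was marked when the gap to its nearest neighbour was over 0.71 of the group's range, which chance gives in about 1 in 20 groups. Of 145 groups searched 20 were marked (about 7.2 by chance), 2 of them among the 50 groups of the members. For the members alone, 2 of 50 is not above the rate of about 1 in 20. Tgfb3 in WT CNTL replicate 3 was at 7.19 scaled TPM against 4.90 to 5.44 in the other 4 mice (gap share 0.766), and Smad3 in WT HFHS replicate 4 was at 7.37 against 4.64 to 4.84 (0.924). The Tgfb1 share of the ligands in GPx4+/- CNTL replicate 5 was 64.7% against 54.1% to 56.7% (0.760).

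The other 17 were marker sums. WT CNTL replicate 3 was the highest of its group for atrial cardiomyocyte (gap share 0.995), fibroblast (0.928), endocardium and vein (0.852), valve and cartilage-like (0.851) and adipocyte genes (0.899). GPx4+/- CNTL replicate 1 was highest for atrial cardiomyocyte (0.809), endocardium and vein (0.824) and mesothelium genes (0.876), and GPx4+/- CNTL replicate 2 for hepatocyte genes (0.992). GPx4+/- HFHS replicate 4 was highest for atrial cardiomyocyte (0.966), fibroblast (0.804), endocardium and vein (0.738) and adipocyte genes (0.969), and GPx4+/- HFHS replicate 1 for platelet genes (0.757). WT HFHS + Carnosine replicate 2 was highest for atrial cardiomyocyte (0.932) and adipocyte genes (0.865), and replicate 1 of that group for hepatocyte genes (0.797). The part of these libraries in the members' values was not tested beyond the fits without them.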

How the results depend on the processing

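The count of 1 called member on HFHS over both genotypes was 0 with no filter (Tgfbr2 adjusted p = 0.0696), with TPM as deposited (0.233) and with the replicate block (0.0577), and 0 to 1 without 1 mouse. In WT the count of 0 was 1 with array weights (Tgfbr2, adjusted p = 0.0400), 1 without 4 or 5 libraries with high atrial sums, sets chosen after seeing the data (4 without GPx4+/- CNTL replicate 2 among them), and 0 to 1 without 1 mouse (1 without WT CNTL replicate 3). In the other 7 comparisons it stayed at 0 under every alternative run. The replicate numbers name different animals (median correlation of same-numbered deviations -0.00465 in 50 pairs, and 4 of 25 libraries were closest to their own number). The block gave 1 called member transcript in place of 0 (Smad3-201), and apart from the lost Tgfbr2 call it changed no call of a member gene. Without 1 mouse, 0 to 2 member transcripts were called (Smad3-201, Tgfbr2-201 or Tgfbr2-202). Share comparisons gave 4 calls without adjustment.

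Of 2563 alternative log2 fold changes of members, 144 changed sign, all with a main size of at most 0.112, and 9 of these moved by more than their standard error. With TPM as deposited these were Tgfb1 (-0.09) and Smad2 (-0.07) on HFHS in GPx4+/- and Smad4 (-0.018) over both genotypes, a scaling that moved the median of all genes by -0.10 in GPx4+/-. Without the 6 libraries that stand apart they were Smad2 on HFHS over both genotypes (0.062, and 0.036 without the 5 with high atrial sums), Tgfb1 between genotypes on HFHS (0.10) and Tgfbr1 in WT HFHS + Carnosine against WT CNTL (0.062, as without 4 or 5). Counts of called genes ranged with the settings from 38 to 405 for HFHS in WT (36 to 202 without 1 mouse), 226 to 424 in GPx4+/- (191 to 484), 718 to 1261 over both and 0 to 141 for WT HFHS + Carnosine against WT CNTL (4 to 78). TPM keeps no depth, so the precision of low genes is unknown.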
